A study of Homo sapiens with 12 samples.

Results

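The mRNAs of 8 genes of the miRNA silencing machinery were followed: the Argonautes AGO1, AGO2, AGO3 and AGO4, the scaffold proteins TNRC6A, TNRC6B and TNRC6C, and the RNase DICER1. They were chosen by gene name, and every probe set that lists 1 of these genes and no other was taken. This gave 39 of the 41091 probe sets with a single gene symbol, or 8 of 19775 genes. AGO1, AGO3 and AGO4 had 4 probe sets each, AGO2 had 1, TNRC6A and DICER1 had 6 each, and TNRC6B and TNRC6C had 7 each. The question was whether the transcripts that encode these effectors are themselves found in the RNA that an AGO2 antibody brings down.

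The cells were Jurkat, a human T-cell leukaemia line grown in RPMI medium with 10% fetal bovine serum, transduced with a construct encoding miR-21 or with the matching control vector. Both kinds of cells gave Total RNA, RNA from an immunoprecipitation (IP) with an AGO2 antibody and RNA from an IP with control IgG. There were 6 groups with 2 replicates each, so 12 Affymetrix arrays. Per the labels, the labelling took 1 ug for Total RNA and 100 ng for an IP, so fraction and labelled amount cannot be told apart in any comparison of an IP with Total RNA. Nothing in the labels says that replicates came from separate transductions, so p-values measure the spread between these arrays, which may be technical. The files measure RNA, and the amount of AGO2 protein in the IPs was not measured here.

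Argonaute proteins hold a miRNA and are guided by it to partly complementary mRNAs. DICER1 cuts the precursor hairpin into the miRNA duplex that is loaded into an Argonaute. TNRC6 proteins (also called GW182 proteins) bind Argonautes and recruit deadenylases, which shorten the poly(A) tail of the target. AGO2 is the human Argonaute best known for cutting its target. In lymphocytes these proteins act throughout differentiation, and miR-21 is a miRNA often high in leukaemias and activated T cells.

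The miRNA encoded by the construct is shown because its seed, bases 2 to 8, is the stretch through which an Argonaute finds most targets. The mature sequence is from RefSeq (GRCh38.p14, chr17:59841273-59841294, plus strand), written 5′ to 3′ with the seed in capitals.
hsa-miR-21-5p: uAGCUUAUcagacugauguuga
Matches to this seed in the mRNAs of the 8 genes were not analysed here.

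The deposited values were on the log2 scale, and all levels and differences are given on it, so a difference of 1 is a 2-fold change. Values averaged 4.39 to 4.41 per array in replicate 1 and 5.26 to 5.27 in replicate 2, and levels are therefore compared within a replicate number. Markers of T cells were bright: 12 of 12 T cell genes lay at or above 4.02, the median level of all probe sets, with array means of 7.97 to 8.74 in Total RNA. Of the markers of B cells, monocytes, erythroid cells and epithelial cells, 2 of 5, 2 of 5, 1 of 2 and 2 of 6 did. In that order, their array means in Total RNA were 3.87 to 4.72, 3.79 to 4.30, 3.86 to 5.20 and 3.32 to 4.28. Those below 4.02 were CD79B, MS4A1, PAX5, CD14, ITGAM, LYZ, ALAS2, CDH1, EPCAM, KRT19 and PAX2. The other markers of these lists were not below it, so the lists do not separate cleanly. In replicate 2 the IPs of the same construct were nearly alike whichever antibody was used. The control vector AGO2 IP array nearly matched the control vector IgG IP array of the same replicate (r = 0.9964 across probe sets), and the miR-21 IgG IP array nearly matched its AGO2 IP counterpart (r = 0.9923). In replicate 1 the same correlations were 0.9532 and 0.9660. As a description of which profile the pairs had, each IP array of replicate 2 minus its Total RNA array was correlated across probe sets with AGO2 IP minus IgG IP of replicate 1. The control vector IgG IP and AGO2 IP gave r = 0.0466 and 0.0430, and the miR-21 IgG IP and AGO2 IP gave r = 0.4471 and 0.4133. Each result on AGO2 IP against IgG IP is therefore given in each replicate, and also without the control vector AGO2 IP and the miR-21 IgG IP of replicate 2, the 2 arrays less like their antibody label by these values.

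All 8 genes were measured well above the middle of the arrays by their lead probe set, that is, the one whose mean over the arrays is highest. In Total RNA the 8 lead probe sets lay between the 72.5th and the 88.8th percentile of the single-symbol probe sets of their array. Of the 39 probe sets, 29 had a mean at or above 4.02 and 10 lay below it. The 10 were 2 of TNRC6A, 3 of TNRC6C, 3 of DICER1, 1 of TNRC6B and 1 of AGO4. Levels of different probe sets are not amounts of RNA that can be compared between genes.

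**Figure D1:**
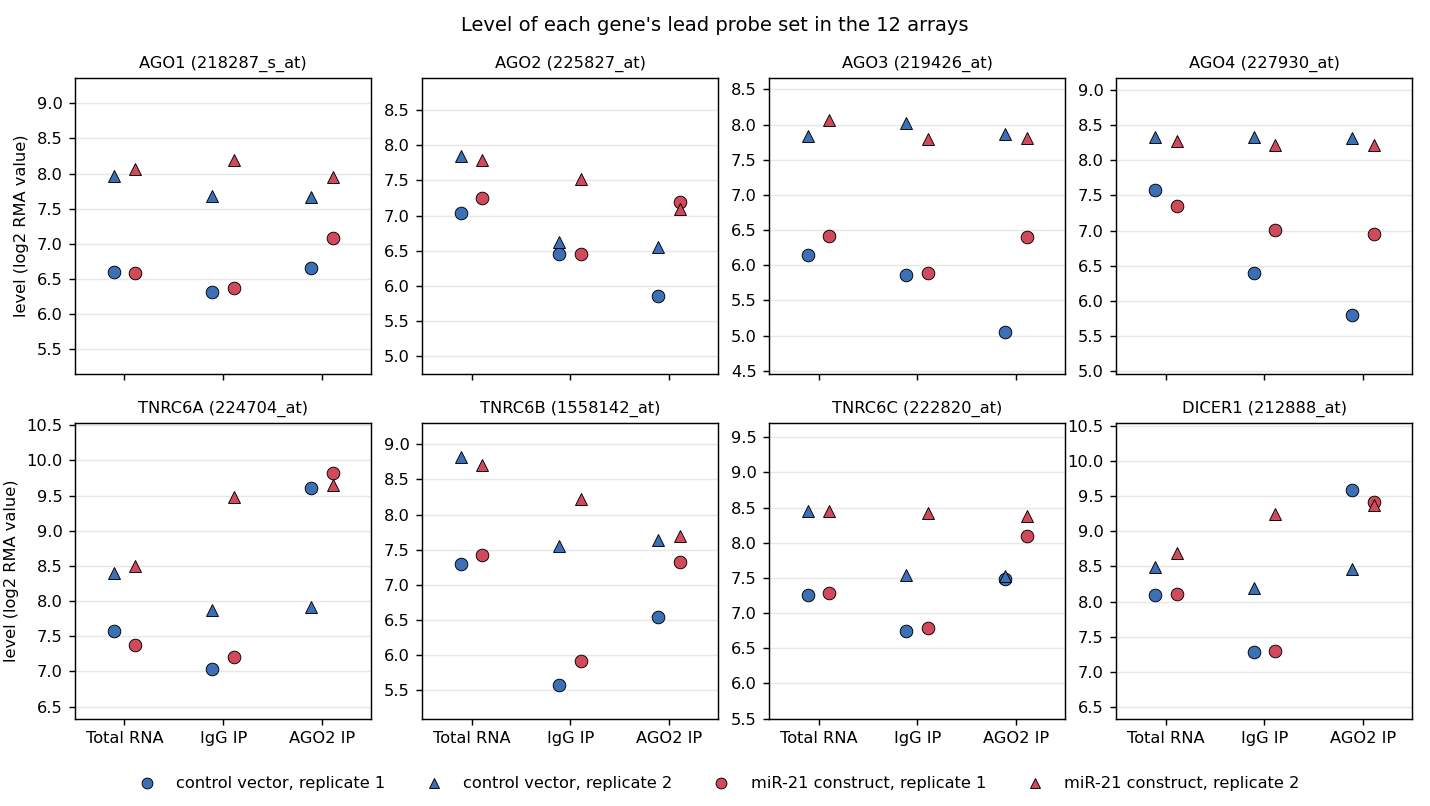
Level of the lead probe set of each gene (log2 RMA value, vertical axis, with its own range in each panel) in the 3 RNA fractions (horizontal axis); circles are replicate 1, triangles replicate 2, blue the control vector and red the miR-21 construct, and each point is 1 array. For TNRC6A and DICER1 both AGO2 IP circles lie above all other circles, while among the triangles both miR-21 IP arrays lie above both control vector IP arrays.

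TNRC6A, a scaffold that links Argonautes to the deadenylases, had the largest difference of AGO2 IP from IgG IP of the 8 genes in replicate 1. Its lead probe set (224704_at) read 7.57 in control vector and 7.37 in miR-21 Total RNA of that replicate. It read 7.04 and 7.20 in IgG IP, and 9.61 and 9.82 in AGO2 IP. Both AGO2 IP arrays were thus more than 2 log2 units above both IgG IP arrays and above both Total RNA arrays, with no overlap. In replicate 2 it read 8.40 and 8.50 in Total RNA, 7.87 and 9.49 in IgG IP, and 7.91 and 9.65 in AGO2 IP. There the split ran between constructs: the control vector IPs were low and the miR-21 IPs were high, whichever antibody had been used.

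The same pattern was seen in another 2 TNRC6A probe sets. In AGO2 IP of replicate 1, 224705_s_at read 9.32 and 10.34 against 6.78 and 6.72 in IgG IP, and 234734_s_at read 8.90 and 9.81 against 6.44 and 6.62. In replicate 2 both read high on the miR-21 IP arrays (9.08 to 9.56) and low on the control vector IP arrays (7.54 to 8.16). The other 3 TNRC6A probe sets (233836_at, 243834_at and 1553346_a_at) were dim, with means of 3.55 to 4.10, and differed between AGO2 IP and IgG IP by at most 0.70 in size in any pair of arrays. What each probe set matches along the transcript was not analysed here.

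DICER1, the nuclease that makes mature miRNAs, gave a like picture. Its lead probe set (212888_at) read 8.09 (control vector) and 8.11 (miR-21) in Total RNA of replicate 1. It read 7.29 and 7.30 in IgG IP and 9.59 and 9.42 in AGO2 IP. The AGO2 IP values again stood clear of all other arrays of that replicate. In replicate 2 it read 8.49 and 8.69 in Total RNA, 8.19 and 9.25 in IgG IP, and 8.47 and 9.38 in AGO2 IP. The miR-21 IP arrays were both high and the control vector IP arrays were both lower, as for TNRC6A.

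Another 3 DICER1 probe sets were also highest in AGO2 IP of replicate 1. 213229_at read 4.98 and 5.63 there against 4.12 and 3.19 in IgG IP, and 206061_s_at read 4.72 and 5.79 against 3.65 and 3.04. The dimmer 216260_at read 4.85 and 5.35 against 3.09 and 3.05. In replicate 2 each of the 3 was highest on the miR-21 IgG IP array (7.63, 6.38 and 4.52). The remaining DICER1 probe sets, 216281_at and 216280_s_at, had means of 2.87 and 2.79 and did not follow the lead.

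In the model of all 12 arrays with 1 mean per group, no single-symbol probe set passed a Benjamini-Hochberg adjusted p of 0.05 (limma, 0%) for AGO2 IP minus IgG IP, the members included. At an unadjusted p under 0.05 there were 72 of 41091, of which 2 were members. The replicate numbers mark a strong shared shift, and with the replicate number as a block the count was again 0 of 41091 (0%), with 1762 at an unadjusted p under 0.05, of which 5 were members. The block fit gave 1.35 ± 0.53 (SE) for the TNRC6A lead, 1.60 ± 0.57 for 224705_s_at and 1.21 ± 0.41 for the DICER1 lead, each with a limma adjusted p of 0.925. The AGO2 probe set gave -0.09 ± 0.21 there. The median over the 39 members was 0.20, against -0.02 over all probe sets, and 28 of the 39 values were positive. Probe sets of the same gene are not separate results, and with 1 probe set per gene 5 values were positive and 3 negative. The share of positive values over all probe sets was not counted.

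**Figure D2:**
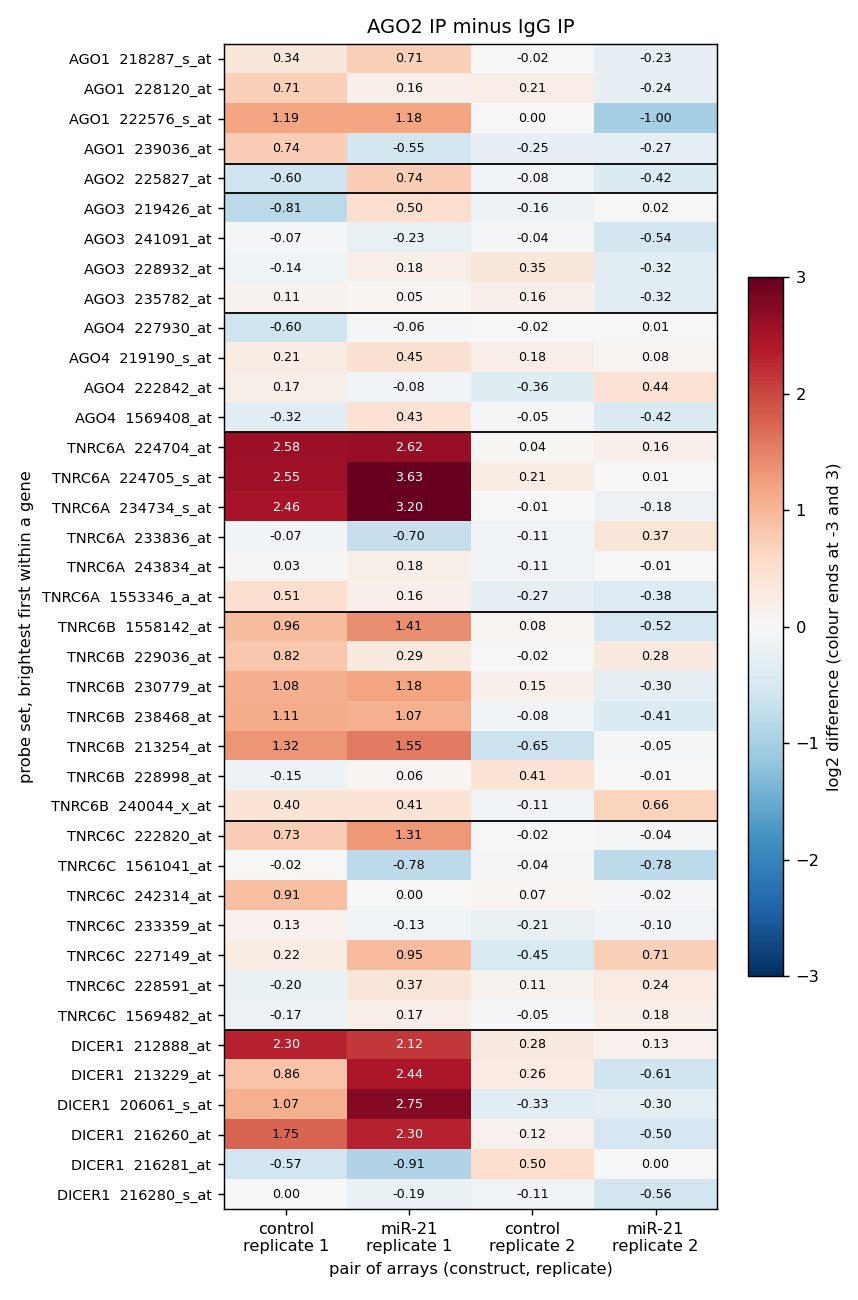
AGO2 IP minus IgG IP (log2 difference, red above 0 and blue below 0) for each of the 39 probe sets (rows, brightest first within a gene) in the 4 pairs of arrays of the same construct and replicate (columns). In replicate 1 the cells of the 3 bright TNRC6A probe sets run from 2.46 to 3.63 and those of 4 DICER1 probe sets from 0.86 to 2.75, and the largest in size in replicate 2 is -1.0, for AGO1 222576_s_at.

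Replicate 1 on its own, where the control vector and miR-21 arrays serve as the repeats, gave calls. A limma fit of these 6 arrays, with 2 residual degrees of freedom, called 13 of the 39 member probe sets higher in AGO2 IP than in IgG IP and 0 lower, against 4.49% of all probe sets called higher and 1.85% lower. These p-values cover the spread between the 2 constructs within that replicate. The control vector AGO2 IP array among them had a sign of shortened RNA, given below with AGO3 and AGO4, whose part in these calls was not tested. The TNRC6A lead was higher by 2.60 ± 0.20 (SE, adjusted p = 9.69e-04), a fold of 6.05. TNRC6A 224705_s_at was higher by 3.09 ± 0.29 and 234734_s_at by 2.83 ± 0.25. The DICER1 lead was higher by 2.21 ± 0.18 (adjusted p = 0.00126), a fold of 4.64. The other 3 called DICER1 probe sets were higher by 1.65 ± 0.35 to 2.03 ± 0.21.

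Among the paralogs of TNRC6A, 4 of 7 TNRC6B and 1 of 7 TNRC6C probe sets were called higher in replicate 1, with smaller sizes. The TNRC6B lead (1558142_at) read 5.58 and 5.92 in IgG IP and 6.54 and 7.32 in AGO2 IP, but 7.29 and 7.43 in Total RNA. Its AGO2 IP values were therefore above IgG IP by 1.18 ± 0.22 (limma adjusted p = 0.0292) while not above Total RNA. A further 3 of the 7 TNRC6B probe sets were called, 213254_at at 1.44 ± 0.19, 230779_at at 1.13 ± 0.18 and 238468_at at 1.09 ± 0.21. The 3 TNRC6B probe sets not called were 229036_at (0.56), 240044_x_at (0.41) and 228998_at (-0.05). The TNRC6C lead (222820_at) read 6.75 and 6.78 in IgG IP and 7.48 and 8.09 in AGO2 IP, a difference of 1.02 ± 0.22 (adjusted p = 0.0455). The other 6 TNRC6C probe sets, with means of 2.84 to 4.27, were not called and ranged from -0.40 to 0.58.

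Among the Argonautes, 1 probe set was called in replicate 1. AGO1 222576_s_at read 4.24 and 4.68 in IgG IP and 5.43 and 5.87 in AGO2 IP, a difference of 1.19 ± 0.21 (limma adjusted p = 0.0259). The AGO1 lead (218287_s_at) read 6.32 and 6.37 in IgG IP and 6.66 and 7.08 in AGO2 IP, and its 0.52 ± 0.20 did not pass (adjusted p = 0.183). AGO1 thus has probe sets that differ in the call, though not in sign.

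The AGO2 mRNA itself did not stand out in AGO2 IP. Its probe set (225827_at) read 7.03 and 7.25 in Total RNA of replicate 1, 6.46 and 6.45 in IgG IP, and 5.85 and 7.19 in AGO2 IP. The control vector AGO2 IP array was the lowest and the miR-21 AGO2 IP array nearly as high as Total RNA, so the fractions overlapped. In replicate 2 it read 7.85 and 7.79 in Total RNA, 6.63 and 7.52 in IgG IP, and 6.55 and 7.10 in AGO2 IP. AGO2 IP minus IgG IP was 0.07 ± 0.33 in replicate 1 and -0.25 ± 0.25 in replicate 2 (limma adjusted p = 0.932 and 1). A further 3 probe sets list AGO2 together with the symbol CASC7, which RefSeq gives as another name of AGO2, and were left out by the rule. Their AGO2 IP minus IgG IP ranged from -0.31 to 0.98 in replicate 1 and from -0.23 to 0.11 in replicate 2. The highest of these was 225569_at, at 0.38 for the control vector and 0.98 for miR-21 in replicate 1.

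AGO3 and AGO4, Argonautes that bind much the same miRNAs as AGO2, were not called in AGO2 IP against IgG IP with any of their 8 probe sets in replicate 1. In replicate 1 the AGO3 lead (219426_at) read 5.86 and 5.89 in IgG IP and 5.05 and 6.40 in AGO2 IP, a difference of -0.15 ± 0.32. The AGO4 lead (227930_at) read 6.40 and 7.01 in IgG IP and 5.80 and 6.95 in AGO2 IP, a difference of -0.33 ± 0.32. The leads of AGO2, AGO3 and AGO4 each had their lowest value of replicate 1 on the control vector AGO2 IP array. That array also had the largest 3′ minus 5′ signal of the ACTB control probe sets, 4.0 against 1.35 to 2.18 on the other arrays of its replicate. A large 3′ minus 5′ signal is a sign of shortened RNA. The same array enters every AGO2 IP call of replicate 1, those of TNRC6A, DICER1 and the gene lists included. In replicate 2 the ACTB signal was 3.53 (control vector) and 3.18 (miR-21) in Total RNA. It was 2.57 and 3.48 in IgG IP, and 2.58 and 2.08 in AGO2 IP. The same signal of GAPDH was 0.71 and 0.58 in Total RNA, 1.14 and 1.60 in IgG IP, and 1.05 and 1.02 in AGO2 IP. The part of the 3′ minus 5′ signal in the values and calls of either replicate was not tested.

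In order of AGO2 IP minus IgG IP in replicate 1, the leads ran TNRC6A, DICER1, TNRC6B, TNRC6C, AGO1, AGO2, AGO3 and AGO4. Their percentiles among all probe sets were 99.4, 99.0, 96.4, 95.6, 90.1, 62.2, 38.4 and 23.6. The pairs of TNRC6A (2.58 and 2.62) and DICER1 (2.30 and 2.12) did not overlap, and both lay above that of TNRC6B (0.96 and 1.41). TNRC6B and TNRC6C overlapped, and the TNRC6C pair (0.73 and 1.31) lay barely above that of AGO1 (0.34 and 0.71). AGO1, AGO2, AGO3 and AGO4 each overlapped with the next.

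Replicate 2 gave another order and no calls. Of all probe sets 0% were called for AGO2 IP minus IgG IP in its 6 arrays, with 496 at an unadjusted p under 0.05 and none of them a member. The TNRC6A lead differed by 0.10 ± 0.40, a fold of 1.07, and the DICER1 lead by 0.20 ± 0.25, a fold of 1.15. The percentiles of the leads, in the order above, were 72.9, 87.3, 11.7, 44.3, 24.9, 9.27, 35.6 and 49.8. The median over the members was -0.07. The spread of AGO2 IP minus IgG IP over all probe sets was also smaller in this replicate, with an SD of 0.22 for the control vector and 0.32 for miR-21 against 0.70 and 0.62 in replicate 1. The difference between the replicates was not itself tested.

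Counts of arrays that did not overlap show the same. In replicate 1 both AGO2 IP arrays lay above both IgG IP arrays for 19 of the 39 member probe sets (19.0% of all probe sets did) and below them for 2 (26.8% of all). In replicate 2 they lay above for 0 (10.1% of all) and below for 7 (10.6% of all). Without the 2 arrays named above, the block fit called 4 member probe sets higher in AGO2 IP than in IgG IP (1.78% of all probe sets were). These were TNRC6A 224704_at at 2.35 ± 0.28, 224705_s_at at 2.60 ± 0.40, 234734_s_at at 2.37 ± 0.39 and the DICER1 lead at 1.98 ± 0.22. Their limma adjusted p ran from 0.0245 to 0.0409. Leaving out these arrays removes the control vector AGO2 IP and the miR-21 IgG IP of replicate 2, so neither construct keeps both of its IPs in that replicate. The 2 arrays were chosen by how alike AGO2 IP and IgG IP were and by their correlation with AGO2 IP minus IgG IP of replicate 1. The kept arrays are those that resemble the replicate 1 result. That difference is the quantity then tested, so these 4 calls are not independent support for a difference.

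**Figure D3:**
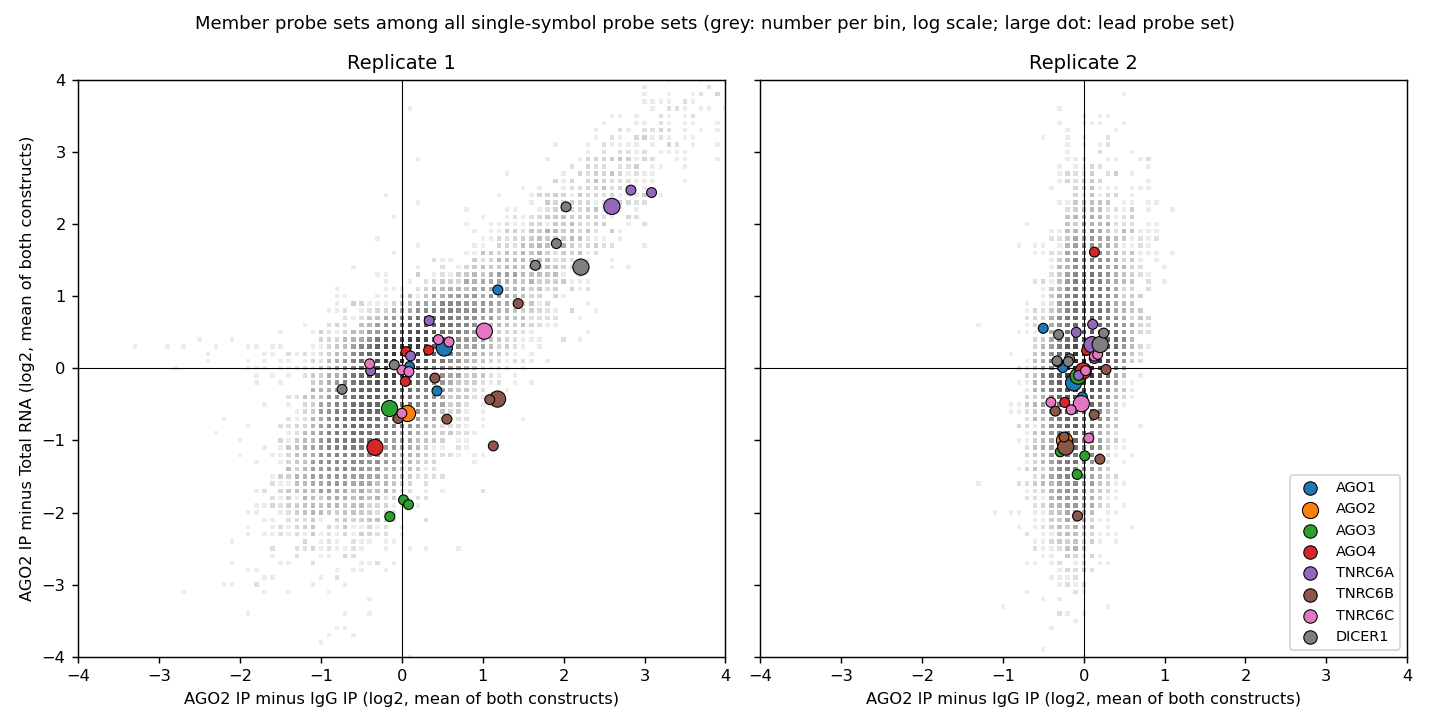
AGO2 IP minus IgG IP (horizontal axis, log2) against AGO2 IP minus Total RNA (vertical axis, log2), each as the mean of both constructs, in replicate 1 (left) and replicate 2 (right); grey squares count all single-symbol probe sets per bin on a log scale and coloured dots are the member probe sets, with large dots for the leads. In replicate 1 the large TNRC6A and DICER1 dots sit at the upper right edge of the cloud, while some of their small dots do not. In replicate 2 the whole cloud is narrow on the horizontal axis.

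Against Total RNA, AGO2 IP had 3 AGO3 probe sets and some TNRC6B and TNRC6C probe sets at lower levels. The leads of TNRC6A and DICER1 were at higher levels in replicate 1. AGO3 228932_at read 5.91 and 6.02 in Total RNA of replicate 1 against 3.85 and 4.43 in AGO2 IP. In replicate 2 it read 6.77 and 6.88 against 5.85 and 5.37. AGO3 235782_at read 5.38 and 5.42 against 3.23 and 3.78 in replicate 1. AGO3 241091_at read 5.36 and 5.07 against 3.36 and 2.96 there. All 3 were lower in every AGO2 IP array than in either Total RNA array of the same replicate. The share of all probe sets that did so was not counted. Their mean differences over both constructs lay at percentiles 0.504 to 0.973 of all probe sets in replicate 1. In replicate 2 these percentiles were 2.74 to 5.19. The brightest AGO3 probe set, 219426_at, differed from them: it read 6.15 and 6.41 in Total RNA and 5.05 and 6.40 in AGO2 IP of replicate 1, and 7.83 and 8.06 against 7.86 and 7.82 in replicate 2.

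The model without the block called 0% of all probe sets for AGO2 IP minus Total RNA, members included, with 2401 at an unadjusted p under 0.05 of which 6 were members. The block fit called 6 member probe sets lower (5.74% of all probe sets were) and 0 higher (1.75% of all). AGO3 228932_at fell by 1.52 ± 0.22, 235782_at by 1.68 ± 0.26 and 241091_at by 1.61 ± 0.23 (limma adjusted p = 0.0102, 0.0130 and 0.0112). The AGO3 lead, at -0.33 ± 0.23, did not pass (adjusted p = 0.430). TNRC6B 230779_at fell by 1.56 ± 0.27, TNRC6B 228998_at by 0.98 ± 0.24 and the dim TNRC6C 1569482_at by 0.80 ± 0.17. The TNRC6B and TNRC6C leads gave -0.76 ± 0.29 and 0.01 ± 0.26 and did not pass.

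AGO2 lay just outside the threshold in this comparison. Its -0.81 ± 0.21 had a limma adjusted p of 0.0508 over all probe sets, of 0.0479 over the probe sets left by the filter on low values, and of 0.0426 where each gene was also taken by 1 probe set. The AGO2 probe set was lower in AGO2 IP than in Total RNA in 4 of 4 pairs of arrays, by 1.18 and 0.06 in replicate 1 and by 1.30 and 0.69 in replicate 2, with the control vector named before miR-21. Among all probe sets these differences lay at percentiles 8.46, 43.0, 5.11 and 11.8, in the same order. The share of all probe sets lower in all 4 pairs was not counted. TNRC6A (1.28 ± 0.53) and DICER1 (0.87 ± 0.41) were not called with the block (adjusted p = 0.196 and 0.257). The AGO2 probe set was below Total RNA in IgG IP as well. Its IgG IP minus Total RNA was -0.72 ± 0.21 with the block (limma adjusted p = 0.138). In the 4 pairs it was -0.58, -0.81, -1.23 and -0.28, in the order of pairs used above. These values share the Total RNA arrays with AGO2 IP minus Total RNA.

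In replicate 1 alone, 9 member probe sets were called higher in AGO2 IP than in Total RNA (5.28% of all probe sets were) and 4 lower (11.1% of all). The 9 were the 3 bright TNRC6A probe sets, at 2.24 to 2.47, 4 of DICER1, at 1.40 to 2.24, AGO1 222576_s_at at 1.09 and TNRC6B 213254_at at 0.90. The 4 were the same 3 AGO3 probe sets, at -2.06 to -1.82, and TNRC6B 230779_at at -1.08. In replicate 2 alone, 1 member probe set was called higher (9.23% of all), AGO4 219190_s_at at 1.61 ± 0.22. Called lower there were 8 (9.80% of all): the 3 AGO3 probe sets, AGO2 at -1.0 ± 0.25, the TNRC6B lead at -1.09 ± 0.23, TNRC6B 230779_at and 238468_at, and TNRC6C 1569482_at. Without the same 2 arrays, 5 were called higher (4.85% of all), namely the 3 TNRC6A probe sets and DICER1 212888_at and 206061_s_at. Called lower were 6 (7.63% of all): the 3 AGO3 probe sets, AGO2 at -0.89 ± 0.21, TNRC6B 230779_at and TNRC6C 1569482_at. The choice of the 2 arrays used AGO2 IP minus IgG IP of replicate 1, in which TNRC6A and DICER1 were the highest leads. The TNRC6A and DICER1 calls without these arrays are therefore not independent support for a difference. The fall of AGO3 228932_at, 235782_at, 241091_at and TNRC6B 230779_at was thus called in replicate 1 and in replicate 2. It was also called with the block and without the 2 arrays, but these fits reuse the same arrays and are not separate results. No member was called without the block, or with the block in either construct alone. With the block, leaving out the miR-21 AGO2 IP of replicate 2 also gave no member call.

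The IgG IP showed the same probe sets below Total RNA, though not all of them were called, as given below. The comparison shares the Total RNA arrays with the previous one, so the 2 sets of values are given side by side and not as independent results. AGO3 228932_at read 3.99 and 4.25 in IgG IP of replicate 1 and 5.50 and 5.69 in that of replicate 2, close to the AGO2 IP values above. TNRC6B 230779_at read 7.25 and 7.29 in Total RNA of replicate 1, 4.99 and 5.14 in IgG IP and 6.07 and 6.32 in AGO2 IP. In replicate 2 it read 8.36 and 8.25, then 5.85 and 6.82, then 6.0 and 6.51. Both IPs were below Total RNA in both replicates, and AGO2 IP lay between IgG IP and Total RNA in replicate 1.

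No probe set was called for IgG IP minus Total RNA without the block (0%; 1050 at an unadjusted p under 0.05, of which 4 were members). With the block 5 member probe sets were lower (1.71% of all probe sets were). AGO3 228932_at, 235782_at and 241091_at fell by 1.54 ± 0.22, 1.68 ± 0.26 and 1.39 ± 0.23 and TNRC6B 230779_at by 2.09 ± 0.27 (limma adjusted p from 0.0112 to 0.0283). TNRC6B 229036_at fell by 1.02 ± 0.18 (adjusted p = 0.0320). TNRC6B 229036_at had not passed for AGO2 IP minus Total RNA (adjusted p = 0.0594). TNRC6B 228998_at (-1.06 ± 0.24) and TNRC6C 1569482_at (-0.83 ± 0.17), called there, did not pass here (adjusted p = 0.0737 and 0.0515). The leads of AGO3 and TNRC6B gave -0.22 ± 0.23 and -1.24 ± 0.29 and did not pass. In replicate 1 alone 6 were lower (1.01% of all): the 3 AGO3 probe sets and TNRC6B 1558142_at, 230779_at and 238468_at. Replicate 2 alone had 3 higher (8.29% of all) and 6 lower (8.38% of all). The 3 were AGO1 222576_s_at at 1.05 ± 0.26, AGO4 219190_s_at at 1.48 ± 0.22 and DICER1 206061_s_at at 0.78 ± 0.17. Without the 2 arrays 2 were lower (0.616% of all), AGO3 228932_at and TNRC6B 230779_at.

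**Figure D4:**
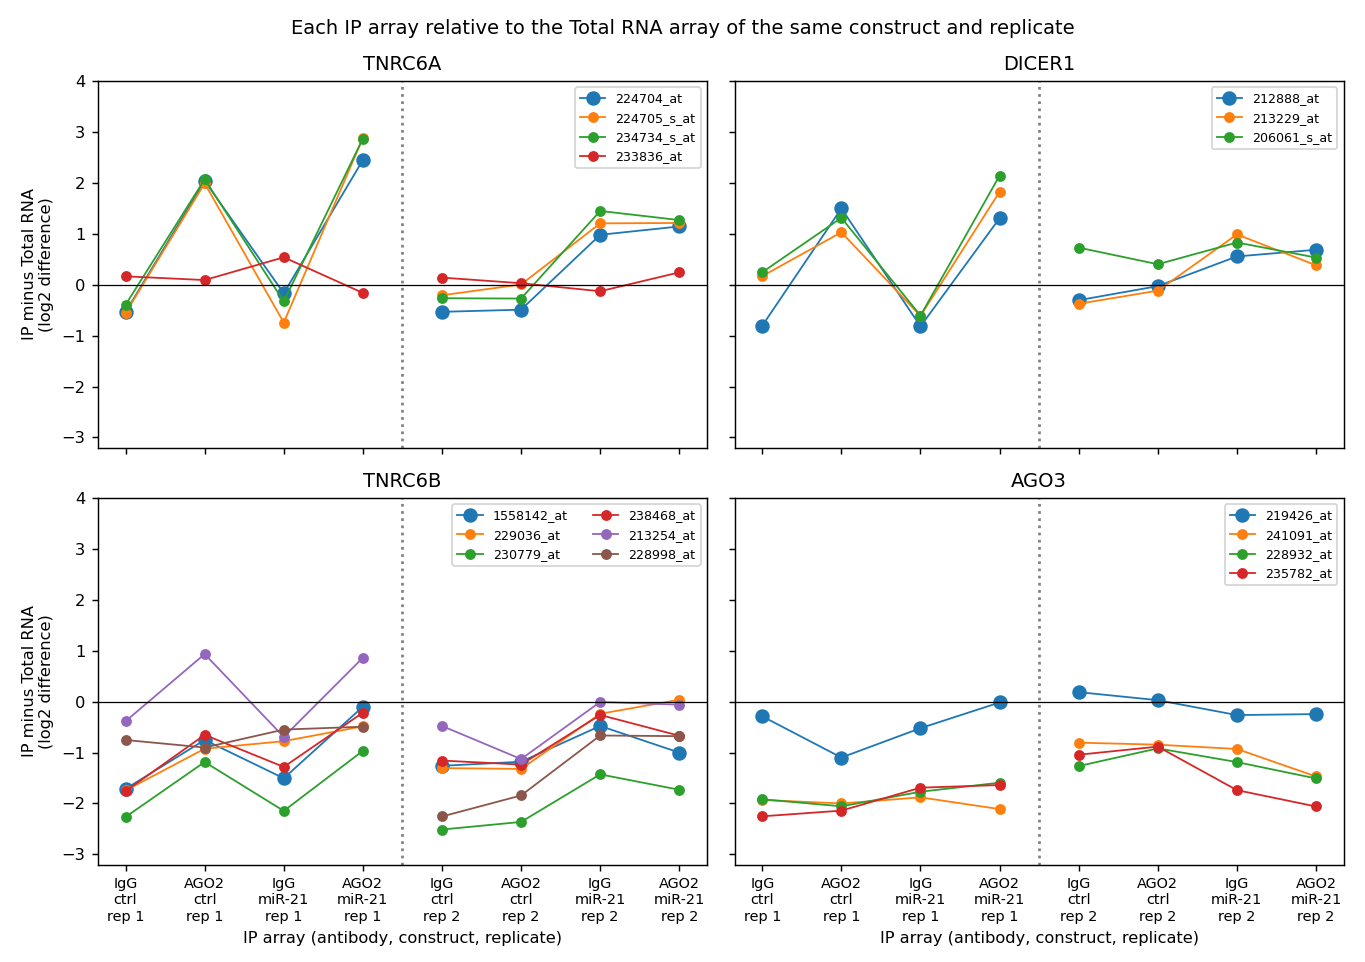
Each IP array minus the Total RNA array of the same construct and replicate (log2 difference, vertical axis) for the 8 IP arrays (horizontal axis, replicate 1 left and replicate 2 right of the dotted line), for the probe sets of TNRC6A, DICER1, TNRC6B and AGO3 with a mean at or above 4.02; large dots are the lead probe sets and lines join the arrays of a replicate for reading only. The leads of TNRC6A and DICER1 change with the antibody in replicate 1 and with the construct in replicate 2, and TNRC6A 233836_at does not follow them. Of the 4 AGO3 probe sets, 3 are below 0 in all 8 IP arrays, and the share of all probe sets that are was not counted.

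AGO4 gave probe sets of opposite sign for AGO2 IP minus Total RNA with the block, and none of them was called. There 219190_s_at gave 0.93 ± 0.32 and the lead -0.57 ± 0.29 (limma adjusted p = 0.125 and 0.285). 219190_s_at read 4.79 and 5.16 in Total RNA of replicate 2, 6.57 and 6.34 in IgG IP and 6.75 and 6.42 in AGO2 IP, above Total RNA with both antibodies. In replicate 1 it read 3.60 and 4.06, then 3.83 and 3.67, then 4.05 and 4.11, with no such gap. The AGO4 lead read between 8.22 and 8.33 on all 6 arrays of replicate 2. In replicate 1 it read 7.58 and 7.36 in Total RNA, 6.40 and 7.01 in IgG IP, and 5.80 and 6.95 in AGO2 IP. In RefSeq, AGO4, AGO1 and AGO3 neighbour each other on chromosome 1, with the pseudogene CFAP97P1 between AGO1 and AGO3. The Argonaute and TNRC6 genes are close paralogs, and whether a probe set reads more than 1 of them was not analysed here.

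The miR-21 construct was compared with the control vector in each fraction. No single-symbol probe set passed in AGO2 IP, Total RNA or IgG IP, or in the interaction of construct with AGO2 IP minus IgG IP, without the block (0% each) or with it (0% each). At an unadjusted p under 0.05 there were 69, 0, 37 and 6 without the block, none of them a member. With the block there were 1769, 55, 803 and 531, of which 4, 1, 1 and 1 were members. In Total RNA the 8 leads gave miR-21 minus control vector of -0.23 to 0.26 over both replicates. In bulk RNA, fewer expressing cells and less RNA per cell cannot be told apart.

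In the IPs the constructs differed more, and differently by replicate. For the TNRC6A lead, miR-21 minus control vector was 0.17 in IgG IP and 0.21 in AGO2 IP of replicate 1, and 1.62 and 1.74 in replicate 2, which are folds of 3.07 and 3.34. For the DICER1 lead the values were 0.01 and -0.17, then 1.06 and 0.91. For the TNRC6C lead they were 0.03 and 0.61, then 0.88 and 0.86. In replicate 2 both miR-21 IP arrays lay above both control vector IP arrays for 19 of the 39 member probe sets (28.4% of all probe sets did) and below for 7 (28.8% of all). For the AGO2 probe set, miR-21 minus control vector was -0.01 in IgG IP and 1.34 in AGO2 IP of replicate 1, and 0.89 and 0.55 in replicate 2. With the block its value in AGO2 IP was 0.95 ± 0.29 (limma adjusted p = 0.999). The interaction for the TNRC6A lead was 0.08 ± 1.07 and for the DICER1 lead -0.16 ± 0.82, and neither passed (limma adjusted p = 1).

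Other genes of the pathway were read by their lead probe sets in lists of known function, chosen with earlier results of these data known. Among the leads of all 19775 genes, 6.14% were called higher and 2.20% lower for AGO2 IP minus IgG IP in replicate 1, with a median of -0.06. For miRNA processing and export, 10 of 12 listed genes were measured: 2 were higher, 0 lower and the median was -0.20. TARBP2, the RNA-binding partner of DICER1, was higher by 1.62 (limma adjusted p = 0.00413) and XPO5, which exports the precursor from the nucleus, by 1.24 (adjusted p = 0.0112). ADAR, an RNA editing enzyme, and RAN, the GTPase of nuclear transport, gave -0.68 and -0.81 and did not pass. In replicate 2 TARBP2 gave -0.09 and XPO5 -0.13, neither called.

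Among 11 chaperones of Argonaute loading, 1 was higher and 1 lower (median -0.49). DNAJA1, a J-domain cochaperone, gave 0.85 (limma adjusted p = 0.0476) and STIP1, which links the chaperones HSP70 and HSP90, -1.23 (adjusted p = 0.0118). HSP90AB1 (0.36) and CDC37 (-0.92) did not pass. Of 24 deadenylation and decapping genes 2 were higher and 0 lower (median -0.08). PAN2, the catalytic deadenylase of its complex, gave 1.11 (adjusted p = 0.0311). PATL1 (1.00), EDC4 (-0.43) and CNOT7 (-0.73) did not pass. Of 18 Argonaute partners and P-body genes 3 were higher and 0 lower (median -0.04). TRIM71, a let-7 target and RNA-binding ligase, gave 2.96 (adjusted p = 0.00113) and FMR1, an RNA-binding protein of neurons and other cells, 1.09 (adjusted p = 0.0350). SND1 (-0.64) and ELAVL1 (-1.13) did not pass. The 3 measured Piwi genes, which act in the germ line, had no call: PIWIL2 gave -0.71, PIWIL1 -0.06 and PIWIL4 -0.01. None of these lists had a call for AGO2 IP minus IgG IP in replicate 2 or with the block.

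For AGO2 IP minus Total RNA with the block, 2.09% of all leads were called higher and 6.43% lower. No gene of the 5 lists was higher. Lower were 4 of 10 processing and export genes (median -0.58), 2 of 11 chaperones (-0.30), 1 of 24 deadenylation and decapping genes (-0.07), 3 of 18 partners and P-body genes (0.03) and 0 of 3 Piwi genes (-0.02). ADAR fell by 1.34 (limma adjusted p = 0.00888), SND1 by 1.38 (adjusted p = 0.00740), EDC4 by 1.29 (adjusted p = 0.0280) and STIP1 by 1.21 (adjusted p = 0.0237). TARBP2, at 0.79, did not pass (adjusted p = 0.392).

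The genes most like AGO2 and DICER1 over the 12 arrays were found by Pearson correlation after each replicate had been centred on its own mean, among 12824 genes at or above the median level. The arrays share their fractions, constructs and normalization, so these values are descriptions. For AGO2 they were LEF1 (r = 0.9795), MARCHF8 (r = 0.9586) and BAHD1 (r = 0.9535). For DICER1 they were FNIP1 (r = 0.9875), TMEM19 (r = 0.9718) and C5orf24 (r = 0.9709). TNRC6A was the 16th of 12823 genes in likeness to DICER1 (r = 0.9604). By the same measure AGO2 had r = 0.0426 with DICER1 and r = 0.0544 with TNRC6A. Of the other members TNRC6B was the most like AGO2 (r = 0.7879), but only the 524th of 12823 genes. AGO1 was the next member after TNRC6A in likeness to DICER1 (r = 0.7800), but only the 947th gene.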

How the data were processed

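Per the labels, RNA extraction used proteinase K and phenol-chloroform, and biotin-labelled RNA was hybridised to 12 arrays. The deposited values are log2 RMA values made by the authors, per the submitters' processing notes; for RMA, version and settings were not given in the sources used here; joint normalization of all arrays is not stated either. Of 54675 probe sets, 62 were controls, 41091 listed 1 gene symbol, 1801 several, and 11721 were not listed. Gene IDs of 41037 matched RefSeq and changed 0 symbols. Members, gene lists and alternatives were chosen with earlier results of these data known.

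limma 3.58.1 in R 4.3.3 was fitted to all 41091 probe sets with no filter: 6 group means, 6 residual degrees of freedom, Benjamini-Hochberg adjustment over all of them, called under 0.05. Same-numbered arrays deviated together from their group means in 15 of 15 pairs of groups (r from 0.490 to 0.856 across probe sets), so the replicate number pairs the arrays, and the fit with it as a block (5 residual degrees of freedom) stands beside. Within a replicate, 6 arrays were fitted with fraction and construct as terms. Named were the 8 genes by lead probe set, others where they differ from the lead in sign or call, and the 2 highest and 2 lowest of each list. Figures used matplotlib 3.10.9. The number of arrays limits the precision.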

Additional observations from a re-analysis of the deposited data

Results flagged for a closer look

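In 3 member probe sets, AGO2 IP minus IgG IP pointed one way in both control vector pairs and the other way in both miR-21 pairs (7.69% of the 39, against 9.48% of all single-symbol probe sets). For AGO3 219426_at the control vector pairs gave -0.81 and -0.16 and the miR-21 pairs 0.50 and 0.02, and miR-21 minus control vector was 0.75 (adjusted p = 1 in limma's interaction with the block). For TNRC6C 242314_at the control vector pairs gave 0.91 and 0.07, both miR-21 pairs lay between -0.02 and 0, which is next to no difference, and the difference was -0.50. For the dim TNRC6C 1569482_at the control vector pairs gave -0.17 and -0.05, the miR-21 pairs 0.17 and 0.18, and the difference was 0.29. The interaction passed for none of the 3.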

How the results depend on the processing

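Without the replicate block, 0 member probe sets were called in all 7 comparisons, and with the replicate block 6 were called for AGO2 IP minus Total RNA and 5 for IgG IP minus Total RNA. With the block, AGO2 IP minus Total RNA gave 6 with arrays centred on their medians, 6 with the filter on low values (AGO2 in, the dim TNRC6C 1569482_at left out by the filter), 6 with an intensity trend and robust moderation, 5 with cyclic loess within each replicate, and 1 (AGO2) with 1 probe set per gene and the filter. IgG IP minus Total RNA gave 6, 5, 5 and 6 under the first 4 of these and 0 under the last. In the control vector or the miR-21 cells alone, the block called 0 for all 3 comparisons of fractions. Without the 2 arrays that stood apart the counts were 4 for AGO2 IP minus IgG IP, 11 for AGO2 IP minus Total RNA and 2 for IgG IP minus Total RNA. The choice of these arrays used AGO2 IP minus IgG IP of replicate 1, so these counts are descriptions. Within replicate 1 they were 13, 13 and 6, and within replicate 2 they were 0, 9 and 9. Leaving out 1 array in turn gave 0 to 10 with the block for AGO2 IP minus Total RNA, the 10 without the control vector AGO2 IP of replicate 2 (4 higher) and the 0 without the miR-21 AGO2 IP of replicate 2; without the control vector Total RNA of replicate 2 it gave 3. It gave 0 to 6 for IgG IP minus Total RNA, with 0 without the control vector IgG IP of replicate 1 or the miR-21 Total RNA of replicate 2 and 3 without either miR-21 AGO2 IP, and 0 in all other comparisons. The causes were not tested. Over all probe sets, AGO2 IP minus Total RNA had 0 calls without the block, 102 without it after centring, 3076 with it and 2354 with cyclic loess; IgG IP minus Total RNA had 0, 6, 784 and 882.
Of 1992 values of the 8 lead probe sets over the alternatives, 21 newly passed the threshold, 190 changed sign with neither value called, and 1781 did neither. Since no value passed without the block, these counts say little about stability. AGO2 IP minus IgG IP rests on replicate 1, and 2 arrays per group limit every call.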
